A study of Mus musculus with 46 samples.

Results

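The receptors for noradrenaline and serotonin were followed in mouse BNST (bed nucleus of stria terminalis), a forebrain nucleus of the extended amygdala with a role in stress and anxiety responses. All probesets annotated to 1 of 10 listed receptor genes (Adra1a, Adra1b, Adra2a, Adra2c, Adrb1, Htr1a, Htr1b, Htr2a, Htr2c and Htr7) were taken, whatever their values. This gave 13 of the 45037 probesets on the array, for 6 of the 10 genes: Adra1b (1 probeset), Adra2c (4), Htr1a (2), Htr1b (2), Htr2c (2) and Htr7 (2). Adra1a, Adra2a, Adrb1 and Htr2a were not analysed here. Adult male C57BL/6J mice inhaled ethanol vapor (CIE, chronic intermittent ethanol) or air (Ctrl) for 16 hours a day over 4 days, a cycle run 4 times with gaps of 7 days. Brains were collected at once when the final exposure ended (0 h) or 8 h, 72 h or 7 d later. Ethanol (1.6 g/kg) with pyrazole (1 mmol/kg), an inhibitor of alcohol dehydrogenase, was injected in CIE mice and saline with pyrazole in Ctrl mice, so both arms carried pyrazole and no group was untreated. Each of the 46 arrays held RNA of 1 mouse, with 6 mice in every group of treatment and time except CIE at 7 d, which had 4.

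Noradrenaline reaches the BNST mainly in fibers from brainstem cell groups, serotonin in fibers from the raphe, and both act on receptors coupled to G proteins. Alpha-1 receptors (Adra1b) and the 5-HT2C receptor (Htr2c) couple to Gq and phospholipase C, which raise excitability. Alpha-2C (Adra2c), 5-HT1A (Htr1a) and 5-HT1B (Htr1b) couple to Gi and Go, which lower cyclic AMP and open inward rectifier potassium channels, and they serve on cell bodies or on terminals as brakes on firing and release. The 5-HT7 receptor (Htr7) couples to Gs and raises cyclic AMP.

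Values are deposited log2 expression values. Array medians lay between 6.78 and 6.83 and any 2 arrays correlated at 0.981 or more. The values had been quantile normalized, which brings medians together, and lasting differences in probe brightness raise such correlations. Neither value can therefore show whether an array stood apart. The 11 measured markers of GABAergic BNST neurons had mean values from 8.57 (Esr1) to 13.0 (Gad1), all above the array medians. Where a gene had several probesets the one with the highest mean was taken to represent it. Probes differ in their brightness, so levels are compared between mice for 1 probeset and never between genes. In tissue RNA, fewer cells of a type and less RNA per cell cannot be told apart.

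None of the 13 receptor probesets passed the test for a CIE effect at any time, where the threshold was a limma p adjusted over all 45037 probesets (Benjamini-Hochberg) of 0.01 or less. The count was 0 of 13 at 0 h against 2.4% of all probesets, 0 of 13 at 8 h against 0.557%, 0 of 13 at 72 h against 0.433% and 0 of 13 at 7 d, where 0% of all probesets passed. Taken over the 4 times together, 0 of 13 passed against 2.84% of all, and for a CIE effect that changed from time to time 0 of 13 against 1.04%. The 95% confidence interval of the difference CIE minus Ctrl stayed between −0.58 and 0.64 log2 units for every receptor probeset at every time. At an unadjusted p under 0.05 there were 5 of 13 at 0 h (2 of them Adra2c, with 1 each for Adra1b, Htr1b and Htr2c) against 16.5% of all probesets, 0 of 13 at 8 h against 10.5%, 2 of 13 at 72 h (both Adra2c) against 12.6% and 0 of 13 at 7 d against 4.94%. The median difference over the 13 was 0.11 at 0 h, 0.03 at 8 h, 0.01 at 72 h and 0.04 at 7 d, where the median over all probesets was within 0.01 of 0. At 0 h 10 of the 13 were higher in CIE, beside 48.9% of all probesets. Probesets of 1 gene share transcripts, so the 13 are not independent.

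**Figure D1:**
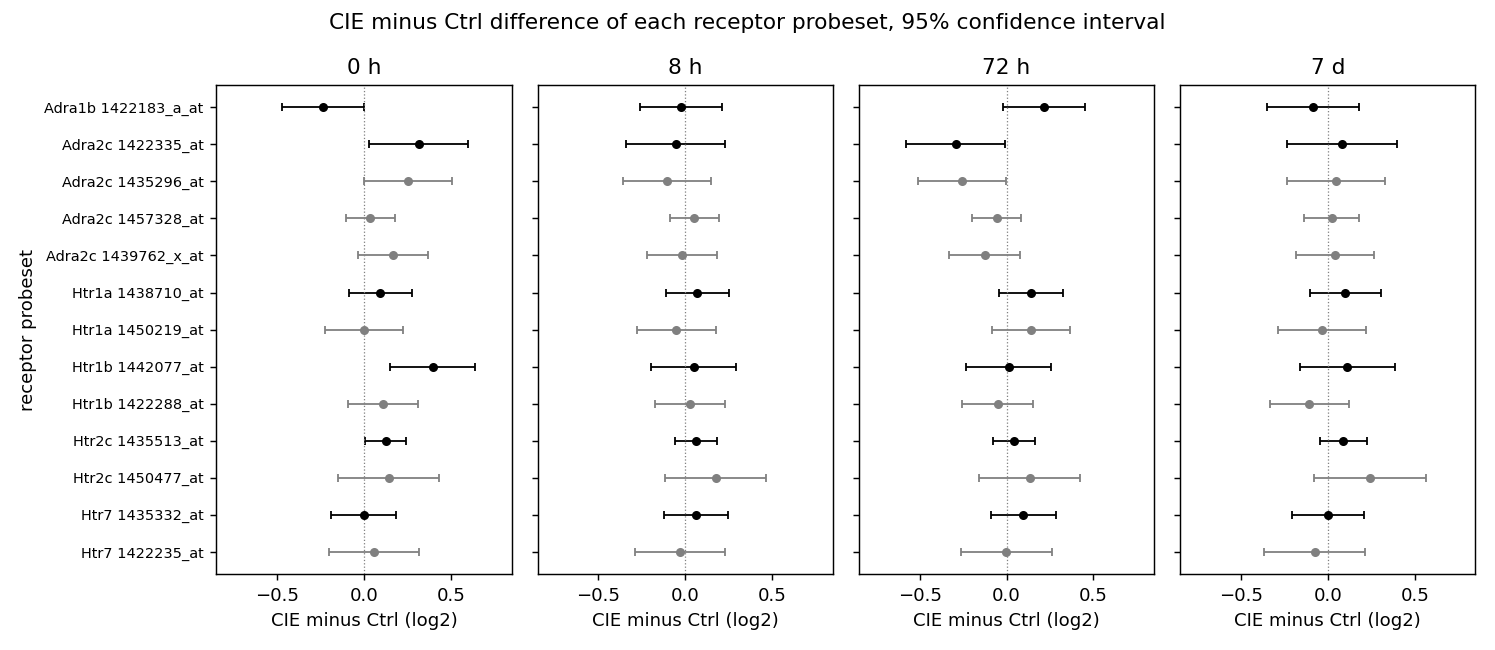
Difference CIE minus Ctrl on the log2 scale (x axis) for each of the 13 receptor probesets (rows) at 4 times (panels), with 95% confidence intervals; black marks the probeset that represents its gene and grey the others. At 0 h the interval of Htr1b lies farthest from 0 (0.15 to 0.64), and those of the 2 brighter Adra2c probesets lie above 0 at 0 h and below 0 at 72 h.

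Adra2c encodes the alpha-2C adrenoceptor, which slows release of noradrenaline and other transmitters. Its brightest probeset (1422335_at) had a lowest, median and highest value of 7.76, 8.13 and 8.20 in Ctrl at 0 h and of 8.06, 8.33 and 8.84 in CIE at 0 h. Of the 6 CIE mice, 5 lay above all Ctrl mice. The difference was 0.31 (SE 0.14, adjusted p = 0.234 by limma), so it did not pass. At 72 h the order was turned, with 8.04, 8.36 and 8.51 in Ctrl and 7.87, 8.04 and 8.19 in CIE. The difference was −0.29 (SE 0.14, adjusted p = 0.375), and 3 of 6 CIE mice lay below all Ctrl mice. The next brightest probeset (1435296_at) gave 0.25 at 0 h and −0.26 at 72 h (SE 0.13 for each), and both probesets moved together from mouse to mouse. The test of whether the CIE effect changed with time had an adjusted p of 0.287 for 1422335_at and 0.323 for 1435296_at. The other pair of Adra2c probesets (1457328_at and 1439762_x_at) was dim, with means of 4.33 and 3.72.

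The groups of Adra2c, in order of their means, ran from CIE at 7 d (8.45 ± 0.28, SD, n = 4) through CIE at 0 h (8.38 ± 0.26), Ctrl at 7 d (8.36 ± 0.40), Ctrl at 72 h (8.33 ± 0.16), Ctrl at 8 h (8.16 ± 0.25), CIE at 8 h (8.10 ± 0.28) and Ctrl at 0 h (8.07 ± 0.17) to CIE at 72 h (8.04 ± 0.14; n = 6 for these). No neighbours in that order were farther apart than 0.81 of their pooled SD.

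Adra1b, an alpha-1 adrenoceptor, had 1 probeset (1422183_a_at), with a mean of 5.98. Its values at 0 h had a lowest, median and highest of 5.99, 6.15 and 6.47 in Ctrl and 5.74, 5.91 and 6.25 in CIE. Of the 6 CIE mice 5 lay below all Ctrl mice, and the difference was −0.24 (SE 0.12, adjusted p = 0.303 by limma). At 72 h the difference was 0.21 (SE 0.12, adjusted p = 0.471), with 2 of 6 CIE mice above all Ctrl mice. The 8 group means spanned 0.32, from 6.18 in Ctrl at 0 h to 5.85 in Ctrl at 72 h, and no neighbours in the order differed by more than 0.61 of their pooled SD.

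Htr1b encodes the 5-HT1B receptor, which sits on axon terminals and reduces transmitter release. For Htr1b as for Adra2c, BNST RNA reports on cells of the BNST and not on receptors of incoming fibers. Its brightest probeset (1442077_at) gave the smallest p of all receptor probesets for CIE. At 0 h the lowest, median and highest values were 9.27, 9.64 and 9.68 in Ctrl and 9.66, 9.94 and 10.31 in CIE. Of the 6 CIE mice, 5 were above every Ctrl mouse and the sixth lay within the Ctrl range. The means were 9.55 ± 0.17 and 9.94 ± 0.22 (SD, n = 6 each), a difference of 0.39 (SE 0.12), or 1.31-fold. The adjusted p was 0.0478 by limma, past a threshold of 0.05, at which 1 of 13 receptor probesets and 4.92% of all were called, but not past 0.01. Leaving out any 1 array gave differences from 0.32 to 0.45 and adjusted p values from 0.0255 to 0.16. The other probeset (1422288_at) differed by 0.11 (SE 0.10, adjusted p = 0.686) in the same direction, and its values followed those of the first at r = 0.096 over the 46 mice once group means were subtracted. What tells the probesets apart was not tested.

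At the later times Htr1b (1442077_at) differed between CIE and Ctrl by 0.05 at 8 h, 0.01 at 72 h and 0.11 at 7 d, each with an SE of 0.12 to 0.14. In order of their means the groups were CIE at 0 h (9.94), CIE at 8 h (9.86), CIE at 7 d (9.82), Ctrl at 8 h (9.81), Ctrl at 7 d (9.71), CIE at 72 h (9.59), Ctrl at 72 h (9.58) and Ctrl at 0 h (9.55). No neighbours differed by more than their pooled SD.

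Htr1a encodes the 5-HT1A receptor, which opens potassium channels on the cell body. CIE and Ctrl values of its brighter probeset (1438710_at) overlapped at all 4 times, with differences of 0.09, 0.07, 0.14 and 0.10 at 0 h, 8 h, 72 h and 7 d (SE 0.09 to 0.10). In both arms the 8 h group had the highest mean, 8.32 ± 0.15 in Ctrl and 8.39 ± 0.17 in CIE, beside means of 8.04 to 8.20 in the other 6 groups. The Ctrl mice at 8 h were 0.22 higher than at 0 h (SE 0.09) and the CIE mice 0.19 higher (SE 0.09). Over the time course neither arm passed the test, with an adjusted p of 0.0531 in Ctrl and 0.209 in CIE (limma F test). The dimmer probeset (1450219_at) had adjusted p values of 0.733 and 0.937 for these tests.

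Htr2c encodes the 5-HT2C receptor, whose activation in the BNST is known to raise anxiety-like behavior. Its bright probeset (1435513_at) varied least of the 13 from mouse to mouse, with an SD of 0.107 over the 46 mice and values from 11.38 to 11.80. At 0 h the lowest, median and highest were 11.46, 11.52 and 11.78 in Ctrl and 11.65, 11.72 and 11.74 in CIE, so that the CIE mice lay inside the Ctrl range. The difference was 0.12 (SE 0.06, adjusted p = 0.274 by limma). Differences at the other times were 0.06, 0.04 and 0.09 (SE 0.06 to 0.07), all higher in CIE. The second probeset (1450477_at) was also higher in CIE at the 4 times, by 0.14, 0.17, 0.13 and 0.24 (SE 0.14 to 0.16), with adjusted p values of 0.720 or more.

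**Figure D2:**
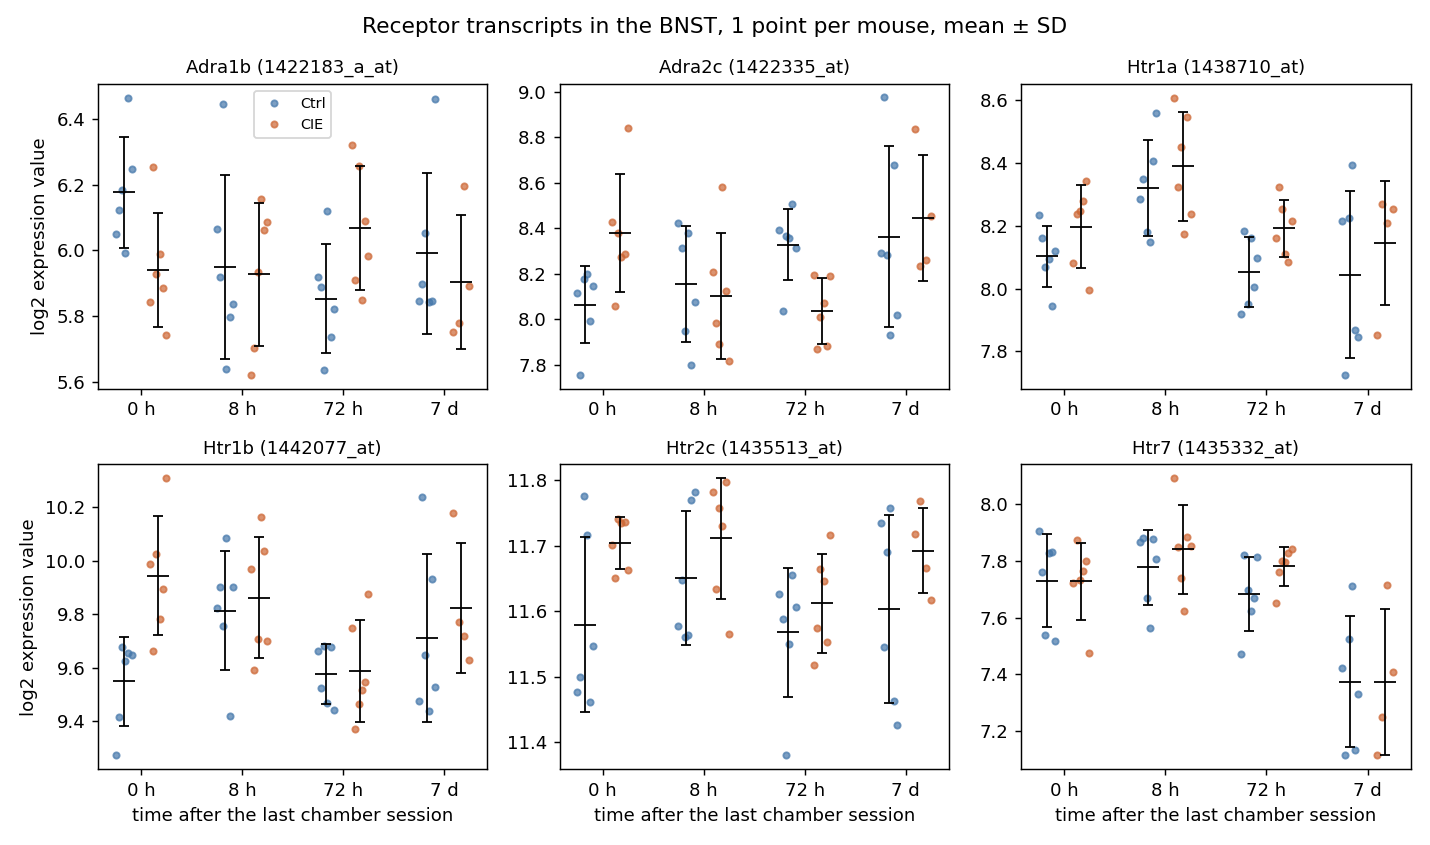
Log2 expression value (y axis) of the representative probeset of each receptor gene against time after the last session (x axis), 1 point per mouse, blue for Ctrl and orange for CIE, with black bars for the mean and SD. Htr7 is lowest at 7 d in both arms (means 7.37 and 7.37), and CIE and Ctrl are farthest apart for Htr1b at 0 h (9.94 and 9.55).

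Htr7, the 5-HT7 receptor, was the 1 receptor gene that passed at 0.01 in the model of group means, in the time courses of both arms. The bright probeset (1435332_at) had a mean of 7.73 ± 0.16 in Ctrl at 0 h, 7.78 ± 0.13 at 8 h and 7.68 ± 0.13 at 72 h, and fell to 7.37 ± 0.23 at 7 d (SD, n = 6 each). CIE mice ran 7.73 ± 0.13, 7.84 ± 0.16 and 7.78 ± 0.07 and then 7.37 ± 0.26 at 7 d (n = 4). The 7 d values were 7.12, 7.13, 7.33, 7.42, 7.53 and 7.71 in Ctrl and 7.12, 7.25, 7.41 and 7.72 in CIE. Of these 10 mice 7 lay below all 36 mice of the earlier times, whose values ran from 7.47 to 8.09. The fall from 0 h to 7 d was 0.36 in Ctrl (SE 0.09, 1.28-fold) and 0.35 in CIE (SE 0.10, 1.28-fold). The adjusted p over the time course was 0.00388 in Ctrl and 0.0052 in CIE (limma F test). That is 1 of 13 receptor probesets in Ctrl beside 10.9% of all probesets, and 1 of 13 in CIE beside 7.76%. CIE and Ctrl differed by −0.00, 0.06, 0.10 and −0.00 at the 4 times (SE 0.09 to 0.10), and the change of the CIE effect had an adjusted p of 0.979.

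The lower probeset of Htr7 (1422235_at) had another shape. It was highest at 0 h in both arms, with 5.81 ± 0.16 in Ctrl and 5.86 ± 0.18 in CIE, against means of 5.38 to 5.55 in the later 6 groups. From 0 h to 8 h it was lower by 0.39 in Ctrl (SE 0.13) and by 0.48 in CIE (SE 0.13). Its time course had an adjusted p of 0.0658 in Ctrl and 0.0224 in CIE, the latter past 0.05, where both Htr7 probesets (2 of 13) were called in CIE beside 14.5% of all. Both probesets were lower at 7 d than at 0 h, with 1422235_at lower by 0.26 in Ctrl (SE 0.13) and 0.39 in CIE (SE 0.14). Markers of other cells also changed over time: 5 of 7 astrocyte markers passed in Ctrl and 6 of 7 in CIE, and their mean was 10.84 at 0 h and 10.68 at 7 d in Ctrl and 10.75 and 10.66 in CIE. The part of the astrocyte markers in the Htr7 time course was not tested. The mean of 8 markers of striatal neurons was 9.44 at 0 h and 10.00 at 7 d in Ctrl and 9.85 and 10.17 in CIE, and with it as a covariate 1435332_at no longer passed (adjusted p = 0.0103 in Ctrl and 0.0302 in CIE). The mean of both Htr7 probesets, taken as 1 value for the gene, gave an adjusted p of 0.0588 in Ctrl and 0.0485 in CIE and did not pass. For 1435332_at the Ctrl call was lost without Ctrl 7d replicate 36, 70 or 80 (adjusted p of 0.026, 0.0197 and 0.0123) and the CIE call without CIE 7d replicate 27, 45 or 65 (0.0668, 0.0384 and 0.0145). The labels give 1 set of mice at each time, so time after the last session cannot be told apart from anything else that differed between those sets.

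**Figure D3:**
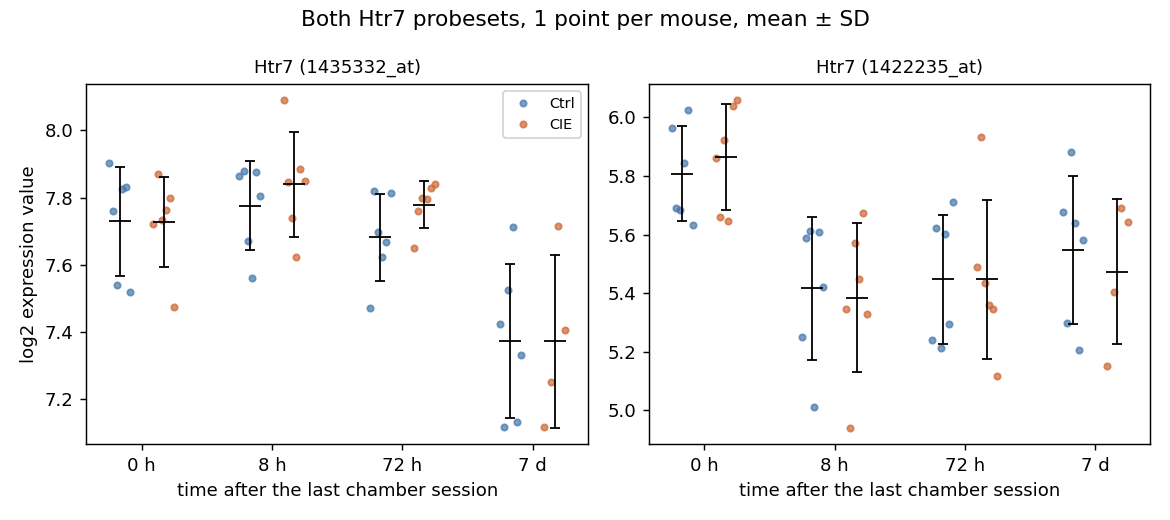
Log2 expression value (y axis) of the Htr7 probesets 1435332_at (left) and 1422235_at (right) against time after the last session (x axis), 1 point per mouse, blue for Ctrl and orange for CIE, with black bars for the mean and SD. The left probeset is flat to 72 h and lower at 7 d, and the right probeset is highest at 0 h (5.81 and 5.86).

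Among the 13 probesets, 2 pairs of neighbouring groups differed by more than their pooled SD, and both were in Htr7: between Ctrl at 72 h and the 7 d groups for 1435332_at (1.65 pooled SD), and between Ctrl at 0 h and Ctrl at 7 d for 1422235_at (1.23 pooled SD).

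The representative probesets of the receptors also varied among mice of the same group, and they did so in 2 sets. Other probesets of a gene followed the representative 1 to differing degrees. Within groups their r with it was 0.096 for Htr1b, 0.384 for Htr7, 0.469 for Htr2c and 0.569 for Htr1a. For Adra2c it was 0.827 for 1435296_at, 0.478 for 1439762_x_at and 0.123 for 1457328_at. Relations of those other probesets to other receptors or markers were not tested. After each group mean was subtracted, Adra2c and Htr1b rose and fell together over the 46 mice (Pearson r = 0.834, Spearman rho = 0.778, both permutation p = 1e-05, the smallest that 100000 permutations can give, adjusted p = 7.5e-05 for r and 0.00015 for rho over 15 pairs of receptors, two-sided). Htr1a and Htr7 also moved together (r = 0.672, rho = 0.620, permutation p = 1e-05 and 2e-05, adjusted p = 7.5e-05 and 0.00015). Between these pairs the relation was negative, with r of −0.533 for Adra2c and Htr1a, −0.566 for Adra2c and Htr7, −0.554 for Htr1b and Htr1a and −0.582 for Htr1b and Htr7 (rho −0.426 to −0.483, permutation p of 0.00373 or less, adjusted p of 0.00799 or less). Htr2c moved with Htr1a (r = 0.512, rho = 0.516, permutation p of 0.00031 and 0.00036, adjusted p = 0.000664 and 0.0018). Without the 2 mice farthest from the median, r was 0.787 for Adra2c and Htr1b, 0.592 for Htr1a and Htr7, −0.418 to −0.499 between the pairs and 0.47 for Htr2c and Htr1a. The other 8 pairs had adjusted p values of 0.0939 or more. Permutations ran over all 46 mice at once although the spread differed between groups, so these p values are approximate. How often pairs of other genes reach such r was not counted.

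The BNST borders on striatum and preoptic area, and of 12 lists of cell markers compared, some moved with the representative probesets of the same receptors. The mean of 8 measured markers of striatal medium spiny neurons (Pde10a, Adcy5, Drd1, Ppp1r1b, Rgs9, Gpr6, Rarb and Drd2, with mean values of 7.95 to 11.1) was related to Adra2c at r = 0.903 and rho = 0.898 and to Htr1b at r = 0.872 and rho = 0.861 (permutation p = 1e-05 each, adjusted p = 0.00024 over 72 relations for r and 0.00018 for rho). It was related inversely to Htr7 (r = −0.658, rho = −0.514, permutation p = 2e-05 and 0.00036, adjusted p = 0.00024 and 0.0037) and Htr1a (r = −0.598, rho = −0.484, permutation p = 5e-05 and 0.00093). Without the 2 farthest mice r was 0.898, 0.875, −0.603 and −0.528. A list of magnocellular and preoptic peptides (Avp, Oxt, Gal and Trh) ran the other way, at r = 0.789 and rho = 0.758 with Htr1a and r = 0.614 and rho = 0.534 with Htr7 (permutation p of 0.00025 or less), and r = 0.741 and 0.543 without the 2 farthest mice. Htr1b was also inversely related to the astrocyte list (r = −0.667, rho = −0.695, permutation p of 2e-05 or less, r = −0.690 without the 2 farthest mice). So was Adra2c (r = −0.499, rho = −0.481, permutation adjusted p = 0.00288 and 0.00471). Adra1b had no relation to the striatal list beyond r = −0.17 and rho = −0.227 (permutation p = 0.259 and 0.131). Htr2c had none to that list beyond r = −0.076 and rho = 0.050 (permutation p = 0.618 and 0.742). Htr2c was related to other lists. It rose with the magnocellular and preoptic list (rho = 0.616, permutation adjusted p = 0.000576, r = 0.619 without the 2 farthest mice). It also rose with the cortical glutamatergic list (r = 0.468, permutation adjusted p = 0.00564). It fell with the mural cell and oligodendrocyte lists (r = −0.508 and −0.502, permutation adjusted p = 0.00272 and 0.00314).

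**Figure D4:**
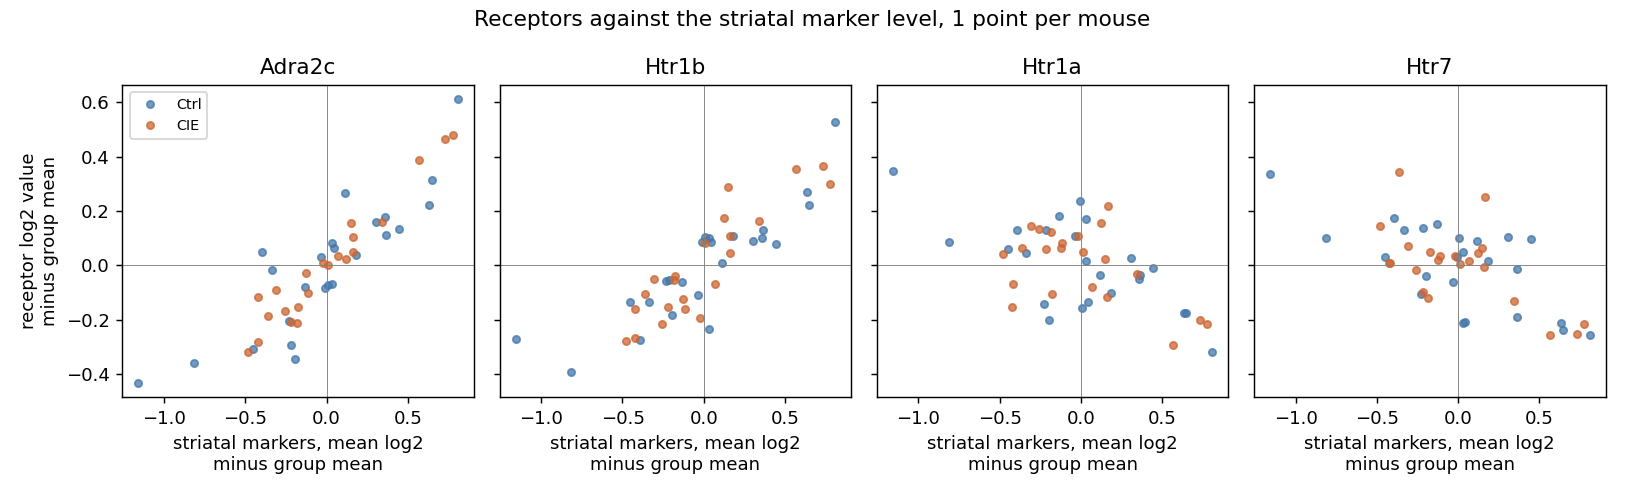
Log2 value of the representative probeset of 4 receptors minus its group mean (y axis) against the mean log2 value of 8 striatal markers minus its group mean (x axis), 1 point per mouse (46 mice), blue for Ctrl and orange for CIE. Adra2c and Htr1b rise with the striatal markers (r = 0.903 and 0.872) and Htr1a and Htr7 fall (r = −0.598 and −0.658).

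The group means of the striatal markers differed as well. Their mean was 9.44 in Ctrl and 9.85 in CIE at 0 h, 9.58 and 9.54 at 8 h, 9.77 and 9.54 at 72 h, and 10.00 and 10.17 at 7 d, and within a group it ranged over as much as 8.85 to 10.81 (Ctrl at 7 d). The difference CIE minus Ctrl was 0.41 at 0 h, −0.04 at 8 h, −0.23 at 72 h and 0.17 at 7 d, with 0 of the 8 markers called at any time. Adra2c had the same sign as the striatal list at the 4 times. Htr1b had it at 0 h and 7 d, but differed by 0.05 at 8 h and 0.01 at 72 h, and Htr1a and Htr7, inversely related to the list among mice, differed by 0.09 and −0.00 at 0 h. The striatal mean was used as a covariate in a fit added after the data were seen. In it Adra2c (1422335_at) differed between CIE and Ctrl by 0.10 at 0 h (SE 0.07) in place of 0.31 (SE 0.14). The limma adjusted p was 0.495 in place of 0.234. At 72 h Adra2c differed by −0.17 (SE 0.06) in place of −0.29 (SE 0.14), with an adjusted p of 0.126 in place of 0.375. Htr1b (1442077_at) differed at 0 h by 0.22 (SE 0.06, adjusted p = 0.0377 by limma) in place of 0.39. Other differences grew with the covariate, at 0 h to 0.18 from 0.09 for Htr1a (SE 0.08, adjusted p = 0.194) and to 0.10 from −0.00 for Htr7 (SE 0.07, adjusted p = 0.593), and at 72 h to 0.11 from 0.01 for Htr1b (SE 0.06, adjusted p = 0.436). Htr7 (1435332_at) was still lower at 7 d than at 0 h, by 0.22 in Ctrl (SE 0.08) and 0.28 in CIE (SE 0.08), but the adjusted p over the time course was 0.0103 in Ctrl and 0.0302 in CIE. In that fit Htr1b passed in both time courses (adjusted p = 0.00106 in Ctrl and 0.000595 in CIE) and 1422235_at of Htr7 in CIE (0.00829), where 10.8% of all probesets passed in Ctrl and 7.95% in CIE.

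The sequences before the starts of the receptor genes are shown for the 4 receptors that were related to the striatal markers. Each is the 250 bases before the annotated start in RefSeq (build GRCm38.p6), on the strand of the gene, 5′ to 3′, with capitals for matches on either strand to 6 short motifs, with no overlapping matches in the windows shown. The GC box (GGGCGG) is in 32.7% of all 32851 windows of this length and the TATA box (TATAAA) in 12.4%. The CCAAT box (its letters are its name) is in 33.8% and an E box (CACGTG) in 6.02%. The CRE half-site (TGACG) is in 17.8% and a glucocorticoid half-site (AGAACA) in 16.1%.
Adra2c, chr5:35278316-35278565, plus strand: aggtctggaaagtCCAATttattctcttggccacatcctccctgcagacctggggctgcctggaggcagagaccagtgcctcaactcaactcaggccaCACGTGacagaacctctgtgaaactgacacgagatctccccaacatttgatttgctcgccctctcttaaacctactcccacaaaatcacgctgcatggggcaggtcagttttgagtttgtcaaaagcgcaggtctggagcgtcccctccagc
Htr1b, chr9:81633833-81634082, minus strand: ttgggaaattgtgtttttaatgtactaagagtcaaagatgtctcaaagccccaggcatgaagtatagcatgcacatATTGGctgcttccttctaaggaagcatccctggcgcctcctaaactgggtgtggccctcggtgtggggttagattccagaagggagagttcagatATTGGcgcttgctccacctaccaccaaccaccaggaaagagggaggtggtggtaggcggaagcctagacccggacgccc
Htr1a, chr13:105443443-105443692, plus strand: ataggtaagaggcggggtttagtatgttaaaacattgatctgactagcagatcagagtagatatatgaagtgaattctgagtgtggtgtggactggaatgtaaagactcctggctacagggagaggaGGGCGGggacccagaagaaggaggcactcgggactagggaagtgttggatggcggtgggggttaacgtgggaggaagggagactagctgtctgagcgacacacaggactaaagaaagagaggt
Htr7, chr19:36057361-36057610, minus strand: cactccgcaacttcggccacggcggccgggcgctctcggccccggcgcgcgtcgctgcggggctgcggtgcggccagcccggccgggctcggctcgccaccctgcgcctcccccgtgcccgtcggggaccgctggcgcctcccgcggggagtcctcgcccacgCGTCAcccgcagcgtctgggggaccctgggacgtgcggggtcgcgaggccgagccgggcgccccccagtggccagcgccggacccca
Adra2c held CCAAT and the E box once each, Htr1b held 2 matches to CCAAT, and Htr1a held 1 GC box. The Htr7 window had 82.0% G and C, at percentile 99.4 of all windows, whose median was 52.4%, and 1 CRE half-site. Adra2c, Htr1b and Htr1a had 53.6%, 52.4% and 50.4%. The E box was in none of the other 3 windows. These matches are descriptions of the letters, and no binding was measured.

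The 3 genes whose values followed the representative probeset of each receptor most closely within groups were taken over 46 mice from 18192 genes, as a description. For Adra2c they were Hpca, a neuronal calcium sensor (r = 0.934), Gm34996 (0.929) and Lrrc10b (0.928). For Htr1b they were Igfbp4 (0.918), Pde7b, a cyclic AMP phosphodiesterase (0.915), and Lpl (0.909). Htr1a was followed by Gprasp2 (0.883), Pnma3 (0.856) and Cd83 (0.854), and Htr7 by Tnnc1 (0.826), Trim66 (0.810) and A930017M01Rik (0.803). Htr2c had Fam241b (0.813), Rab27b (0.796) and Rab9b (0.776), and Adra1b had Kcnh2, a potassium channel (0.785), Serpini1 (0.75) and Fam3c (0.721). These mice share dissection and array processing.

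None of the other receptors measured in these families was called. Of 9 further adrenergic and serotonin receptor genes measured of 13 listed (all 9 of them for serotonin), 0 rose and 0 fell at any of the 4 times, and 0 passed in either time course. Nearest to the threshold was Htr1f over the CIE time course (adjusted p = 0.0117, and 0.0409 in Ctrl), with means of 6.33 in CIE and 6.13 in Ctrl at 0 h, 5.92 and 5.94 at 8 h, 6.00 and 5.90 at 72 h, and 6.23 and 6.22 at 7 d. Between CIE and Ctrl at a single time the smallest unadjusted p was that of Htr5b at 72 h, at 4.81 in CIE and 5.02 in Ctrl (difference −0.21, SE 0.09, adjusted p = 0.256 by limma). Of these 9, 7 were higher in CIE at 0 h, with a median difference of 0.06.

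Of 12 genes measured of 14 listed for making, moving and breaking down monoamines, Ddc alone was called for CIE. Ddc encodes the decarboxylase that makes dopamine and serotonin. At 0 h its lowest, median and highest values were 10.10, 10.14 and 10.16 in Ctrl and 10.67, 10.72 and 10.97 in CIE, so the groups did not overlap. The share of all probesets without overlap was not counted, and 2.4% of all were called at 0 h. Ddc rose by 0.64 at 0 h (SE 0.07, adjusted p = 3.96e-08) and by 0.39 at 8 h (SE 0.07, adjusted p = 0.000669), and differed by 0.12 at 72 h and 0.02 at 7 d. The 8 h call was lost with only the 2 groups fitted (adjusted p = 0.115) and with the mean of its probesets (0.103). The second Ddc probeset (1430591_at) rose by 0.41 at 0 h (adjusted p = 0.00133) and differed by −0.05 at 8 h. Tyrosine hydroxylase (Th), the first step to noradrenaline, differed by −0.01 at 0 h, and Dbh, the last step, by 0.17 (adjusted p over 0.01 for both). Noradrenaline fibers of the BNST come mainly from brainstem cell groups, so values in BNST RNA do not report on noradrenaline synthesis there. Of 3 Dbh probesets only the brightest is given. Maoa and Maob, the monoamine oxidases, were lower in CIE at 0 h by 0.12 and 0.13 without passing (adjusted p = 0.205 and 0.233). At 0 h the mural cell list was 0.29 lower in CIE (0 of 5 genes higher, 2 called), the endothelial list 0.21 lower (0 of 5 higher, 1 called) and the microglia list 0.21 lower (1 of 5 higher, 0 called), and their part in these values was not tested. Maob passed over time in both arms (adjusted p = 0.000532 in Ctrl and 0.000765 in CIE).

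Among 37 G protein subunits, effectors and desensitising proteins measured of 38 listed, 0 passed for CIE at 0 h, 8 h or 7 d. At 72 h 3 were called higher in CIE than in Ctrl and 0 were called lower. At 72 h 25 of the 37 were higher in CIE, beside 49.8% of all probesets, with a median difference of 0.07 beside −0.00 over all. An unadjusted p under 0.05 by limma was found for 16 of the 37, beside 12.6% of all probesets. Kcnj3 and Kcnj9 encode subunits of the potassium channels that 5-HT1A and alpha-2 receptors open. At 72 h Kcnj3 had a lowest, median and highest of 9.16, 9.25 and 9.60 in Ctrl and 9.76, 9.85 and 10.02 in CIE. It was 0.56 higher in CIE (SE 0.10, limma adjusted p = 0.00205). Kcnj9 had 7.86, 7.94 and 8.08 in Ctrl and 8.19, 8.45 and 8.54 in CIE. It was 0.46 higher in CIE (SE 0.10, limma adjusted p = 0.00878). In neither gene did the 72 h groups overlap, but the share of all probesets without overlap was not counted. Over the 4 times Kcnj3 means were 9.57, 9.66, 9.30 and 9.53 in Ctrl and 9.595, 9.73, 9.86 and 9.53 in CIE. Kcnj9 means were 8.19, 8.15, 7.95 and 8.10 in Ctrl and 8.03, 8.13, 8.41 and 8.00 in CIE. Of all probesets 0.433% were called at 72 h. Prkacb, a catalytic subunit of protein kinase A, was 0.28 higher in CIE at 72 h (SE 0.06, limma adjusted p = 0.00507). Its lowest, median and highest there were 12.21, 12.33 and 12.51 in Ctrl and 12.49, 12.63 and 12.72 in CIE. Over the 4 times its means were 12.42, 12.57, 12.34 and 12.55 in Ctrl and 12.59, 12.67, 12.63 and 12.60 in CIE. In all 3 genes the Ctrl mean was lowest at 72 h, and for Kcnj3 and Kcnj9 the CIE mean was highest then. The change of the CIE effect did not pass for Prkacb, Kcnj3 or Kcnj9 (adjusted p = 0.297, 0.0311 and 0.0159 by limma F test). A second probeset of Kcnj3 (1444025_at) was 0.69 higher in CIE (limma adjusted p = 0.00238). Kcnj3 probesets 1421468_at and 1444336_at were higher by 0.27 and 0.14 and did not pass (limma adjusted p = 0.0347 and 0.514). No other probeset of Kcnj9 or Prkacb passed. Leaving out 1 array, Kcnj9 lost its call in 13 of 46 fits (adjusted p up to 0.0314) and Prkacb in 9 of 46 (up to 0.0241), and Kcnj3 in none. All these fits of Prkacb, and most of those of Kcnj9, left out a mouse of the 72 h groups, which hold 6 each. With the mean of probesets Kcnj9 (0.199) and Prkacb (0.909) lost it, and Prkacb also with only the 2 groups fitted (0.0154). Among the marker lists, that of GABAergic BNST neurons was also 0.28 higher in CIE at 72 h (10 of 11 genes higher, 0 called). The microglia list was 0.43 lower (0 of 5 higher, 0 called) and that of basal forebrain cholinergic neurons 0.31 lower (2 of 5 fell, 1 rose). The part of these shifts in the 3 differences was not tested. Adcy5 and Pde10a belong to both the effector and the striatal list. Over time 6 of the 37 passed in Ctrl (Gnao1, Gnaz, Plcb3, Prkacb, Grk3 and Arrb2), beside 10.9% of all probesets, and 1 in CIE (Pde4d), beside 7.76%.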

How the data were processed

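BNST RNA of 46 mice (24 Ctrl, 22 CIE) was hybridized to Affymetrix Mouse Genome arrays, 1 mouse per array. The deposited values are log2 probeset values that the authors made with RMA and quantile normalization within hybridization batches, a further quantile normalization over all arrays, and ComBat for hybridization batch. Which array belonged to which batch, the versions of the authors' tools and any covariates of ComBat are not given in the sources used here. No within-batch value can therefore be given, and repeated quantile normalization hides a shift common to most genes. Detection per probeset was not used, and the number of mice limits precision.

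Gene names came from GEO's platform annotation (34945 of 45037 probesets with 1 symbol, 932 with several, 9160 with none). The table held 0 missing values and 0 identical arrays. The main model (limma 3.58.1, R 4.3.3) held 1 mean for each of 8 groups, estimated from the 46 arrays together with 38 residual degrees of freedom. Benjamini-Hochberg adjustment covered all probesets, and the threshold was 0.01. Moderated F tests covered the 4 CIE effects, each arm's time course and the change of effect. All tests were two-sided, and the scripts were tested on simulated data. Relations over mice used 100000 permutations (numpy, scipy) over all 46 arrays at once, not within groups. The spread differed between groups (striatal marker SD of 0.70 in Ctrl at 7 d and 0.23 in CIE at 72 h), so their p values are approximate. Promoter sequences came from RefSeq (GRCm38.p6). Groups came from the labels. Members, gene lists and the naming rule were chosen with earlier results of these data known: every member is described, with the 3 genes most like it, and of other genes in 3 pathway lists those called or among the 3 smallest p. Alternatives are given at the end, and the fit with striatal markers as a covariate was chosen after seeing the data.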

Additional observations from a re-analysis of the deposited data

Results flagged for a closer look

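In 104 combinations of a receptor probeset and a group, 6 held 1 mouse set far from the others of its group, by a test for which chance gives about 1 in 20. For Adra1b (1422183_a_at) Ctrl 7d replicate 80 was at 6.46, where the next mouse was at 6.05. For Adra2c (1439762_x_at, a dim probeset) Ctrl 72h replicate 44 was at 3.93 with the next at 3.76. For Htr1a (1438710_at) CIE 7d replicate 27 was at 7.85 with the next at 8.21, and this mouse had the highest striatal marker mean of the CIE mice at 7 d (10.74). For Htr1a (1450219_at) CIE 8h replicate 21 was at 5.43 with the next at 5.98, and CIE 72h replicate 29 was at 6.29 with the next at 6.03. For Htr1b (1422288_at) CIE 72h replicate 29 was at 7.35 with the next at 7.62. No receptor probeset had a CIE effect that differed between times at the threshold used.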

How the results depend on the processing

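No paired analysis was possible because the replicate numbers in the labels are all different, so that no number occurs in more than 1 group. The count of receptor probesets called for CIE was 0 at 8 h, 72 h and 7 d, over the 4 times together and for the change of effect under every alternative run: only the groups compared (for single times), array weights, trend and robust variance, probesets of low mean level left out, medians aligned, quantile normalization once more, 2 residual components as covariates, an adjusted p of 0.05, the mean of a gene's probesets, the striatal covariate and each of 46 arrays left out in turn. At 0 h it was 0 in all but the threshold of 0.05, which gave 1 (Htr1b). The Ctrl time course had 1 in all but the mean of a gene's probesets (0) and the leave-one-out fits (0 to 1), but with the striatal covariate that 1 was Htr1b in place of Htr7. The CIE time course had 2 with array weights, with 2 residual components and at 0.05 (both Htr7), 2 with the striatal covariate (Htr1b and Htr7 1422235_at) and 0 with the mean of probesets, and 0 to 2 with 1 array left out, where the 2 came without CIE 72h replicate 29. Of 268 differences of a receptor gene at a time under other settings, 19 had the opposite sign, all of them not called, and so had 24 of 1104 with 1 array left out. These shares do not measure how stable the signs are, because many of the values could not change. Fitting only the groups compared, trend and robust variance, leaving out low levels, residual components and the threshold of 0.05 leave a difference as it was. So does leaving out an array of a group that is not compared. Ddc at 8 h lost its call with only the 2 groups fitted (adjusted p = 0.115) and with the mean of its probesets (0.103). At 72 h Prkacb lost it with only the 2 groups fitted (0.0154), and with the mean of probesets Prkacb (0.909) and Kcnj9 (0.199) did. Leaving out 1 array, Prkacb had adjusted p values of 0.001 to 0.0241, with the call lost without Ctrl 72h replicates 16, 34, 44, 52 and 68 and CIE 72h replicates 3, 29, 35 and 71. Kcnj9 had 0.00424 to 0.0314, with the call lost without Ctrl 0h replicate 38, CIE 0h replicates 26 and 43, those same Ctrl 72h replicates, and CIE 72h replicates 3, 35, 61, 63 and 71. Kcnj3 and Ddc at 0 h kept their calls in all alternatives run. The causes were not tested.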
